A study of Mus musculus with 4 samples.

Results

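Aerocytes, also called aCap cells, are the large capillary endothelial cells (ECs) of the lung that face the air space, and 8 genes that mark them were followed here from cell to cell. The 8 genes are Car4, Ednrb, Fibin, Tbx2, Emp2, Chst1, Tmeff2 and Rprml, a list chosen with earlier results of these data known. All 8 were among the 20076 gene symbols of the deposited single-cell matrix. Whole lungs gave 4 libraries, 2 with the label WT and 2 with the label ERG CKO. WT mice carried floxed Erg alleles (ERG fl/fl). ERG CKO mice carried the same alleles together with the tamoxifen-inducible recombinase CDH5-CreER(T), whose promoter is active in ECs, and lungs of both groups were taken 90 days after 5 injections of 0.5 mg tamoxifen. Both groups thus shared the floxed alleles and the drug, and differed in the Cre transgene named by the labels.

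The alveolar capillary bed is made of aerocytes, which are spread over the thin gas-exchange surface, and of general capillary (gCap) cells, which are smaller and serve as progenitors in repair. Aerocytes are recognised by high Car4 and Ednrb, and Tbx2 and Fibin are among the genes that separate them from gCap cells. The gene deleted in ERG CKO mice encodes an ETS-family transcription factor that keeps up endothelial identity and binds DNA at sites with a GGAA core. The question was how the level of each marker, the share of cells in which it was seen and its company in the same cell differed between the groups.

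The 4 libraries held 1852 to 3097 cells and 11263911 to 18646776 UMIs (unique molecular identifiers, each standing for 1 captured RNA molecule), with medians of 4611 to 4899 UMIs per cell. Of 9363 cells, 2529 were ECs, 5982 belonged to 14 non-endothelial classes, and 852 cells with a median of 990.5 UMIs stayed unnamed and outside every comparison. Between libraries, 7 cell barcodes appeared more than once. Erg itself stood at 85.8 and 88.6 CPM (UMIs per 1000000 UMIs) in ECs of the WT libraries, against 105 and 82.9 CPM in ECs of the ERG CKO libraries (log2 fold change 0.08, SE 0.15, adjusted p = 0.873, edgeR). The counts cover the gene as a whole, so they do not show whether the floxed part was lost, and directions below are those of the libraries as labelled. Replicate 1 of both groups held Xist and replicate 2 of both groups held Y-linked RNA, so sex and replicate number cannot be told apart. By these genes and the methods of the study each library was a mouse of its own, and p-values measure the spread between these mice.

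Aerocytes were found without the 8 genes, which were kept out of both the clustering and the naming of cells. The cluster of ECs that carried 7 of 7 other aerocyte markers (Apln, Kitl, Prx, Kdr, Nrp1, Sirpa and Igfbp7) held 347 cells, 43 and 71 in the WT libraries against 128 and 105 in the ERG CKO libraries (values are given in the order of replicates 1 and 2 throughout). Its 10 leading genes over the other ECs included all 8 genes of the list, as a description of the cluster. Aerocytes made up 7.45% and 10.2% of ECs in the WT libraries and 17.1% and 20.8% in the ERG CKO libraries, which did not overlap, and the exact permutation test gave p = 0.333, the smallest that 2 libraries against 2 allow. The ERG CKO share rested on how cells were drawn together. A stricter core of 262 aerocytes gave 7.28% and 9.30% for WT libraries, below the 10.9% and 14.5% of ERG CKO libraries, and without aligning the libraries 37.4% and 46.4% of ERG CKO ECs fell into clusters with the aerocyte name. In that setting WT and ERG CKO cells hardly shared a cluster: 121 cells, 43 and 70 from WT replicates 1 and 2 and 4 from each ERG CKO library, formed one, and 512 cells, 1 and 5 from WT and 276 and 230 from ERG CKO, formed the other. Markers shared by all ECs were lower in the aerocyte cluster of the ERG CKO libraries too, with 8 markers summing to 12392 and 12237 CPM there against 22265 and 21823 CPM in WT. Markers of some other cells were higher in the same cluster of both ERG CKO libraries: venous ECs (7 genes, 40.0 and 46.1 CPM in WT, 215 and 165 CPM in ERG CKO), monocytes (8 genes, 89.3 and 57.7 CPM, then 222 and 173 CPM), interstitial macrophages (7 genes, 15.4 and 26.9 CPM, then 99.4 and 100.02 CPM) and mural cells (8 genes, 24.6 and 21.2 CPM, then 38.2 and 25.4 CPM). Markers of proliferation were at 0 in both WT libraries and at 2 UMIs in each ERG CKO library (2.55 and 3.18 CPM). Between 0 and 5 genes of each of the first 4 lists were at 0 in a library. Other lists were lower in the aerocyte cluster of both ERG CKO libraries. Markers of gCap cells (8 genes) stood at 1746 and 1421 CPM in WT and at 1126 and 911 CPM in ERG CKO. Those of epithelial cells (10 genes) stood at 2239 and 2555 CPM in WT and at 1186 and 1007 CPM in ERG CKO. Sums for dendritic cells, NK cells, and mast cells or basophils were lower too. The part of these differences in the values of the 8 genes was not tested.

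**Figure D1:**
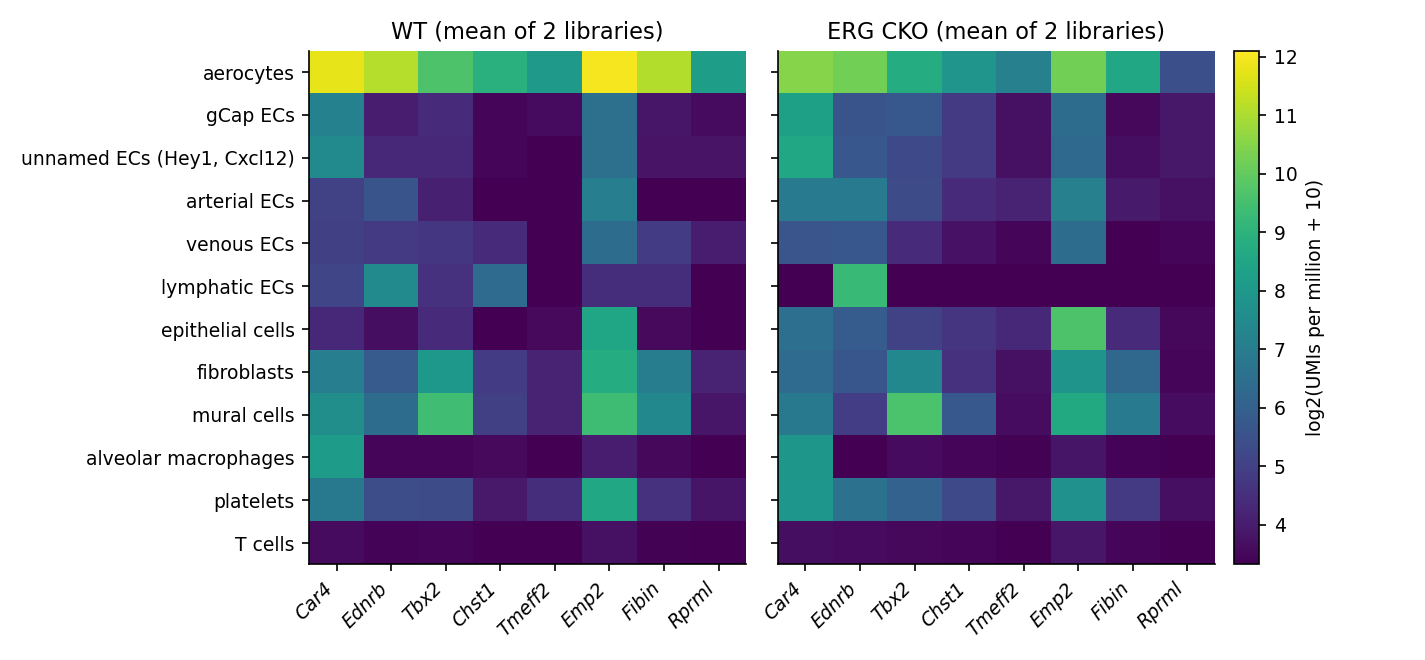
Mean level of the 8 genes, as log2(CPM + 10), in 12 cell classes (rows) of WT and ERG CKO libraries, averaged over 2 libraries per group. The aerocyte row is the brightest for each gene in WT, and Tbx2 and Emp2 come nearest to it in mural cells.

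In WT, the aerocyte level of each of the 8 genes was 21.2 to 187 times that of the other ECs of the same library. The ratio was lowest for Car4, at 21.2 and 30.8 in WT replicates 1 and 2, and highest for Fibin, at 139 and 187. In ERG CKO libraries the same ratios were 5.08 to 50.02, and for each gene both ERG CKO ratios lay below both WT ratios. Lymphocytes (T, B and NK cells), which should lack these genes, gave the background: over 2832 lymphocytes, with a summed level of at most 5.22 CPM for any of the 8 genes in any library, Rprml had 1 UMI and Tmeff2 had 3 UMIs.

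Promoter sequence is shown for the genes at the extremes of the comparison, since the deleted factor belongs to the ETS family. Sequences and gene positions are from RefSeq (GRCm38.p6) and run from 250 bases before to 50 bases after a start that RefSeq annotates for 1 transcript of the gene, 5′ to 3′ on the strand of the gene, with each GGAA or its reverse complement TTCC in capitals. Fibin (chr2:110362944-110363243, minus strand) and Rprml (chr11:103649259-103649558, plus strand) had the largest falls in aerocytes, Chst1 (chr2:92600867-92601166, plus strand) had the largest rise outside them, and Car4 (chr11:84957504-84957803, plus strand) held the longer word CCGGAAG. For Chst1, as for Ednrb and Tmeff2, whose promoters are not printed, the stretch lies inside the span of the gene given below, so other starts of these genes were not searched.
Fibin: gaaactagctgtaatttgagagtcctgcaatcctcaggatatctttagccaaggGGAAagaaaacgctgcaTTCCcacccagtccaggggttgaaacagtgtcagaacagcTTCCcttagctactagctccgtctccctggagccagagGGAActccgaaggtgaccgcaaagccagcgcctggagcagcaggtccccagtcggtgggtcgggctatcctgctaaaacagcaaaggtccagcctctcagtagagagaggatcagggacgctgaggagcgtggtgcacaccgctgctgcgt
Rprml: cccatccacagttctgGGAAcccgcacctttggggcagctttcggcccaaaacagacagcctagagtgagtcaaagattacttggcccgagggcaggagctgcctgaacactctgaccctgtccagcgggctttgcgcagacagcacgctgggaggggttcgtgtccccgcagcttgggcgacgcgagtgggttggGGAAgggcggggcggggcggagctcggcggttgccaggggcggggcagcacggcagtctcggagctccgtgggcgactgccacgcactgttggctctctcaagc
Chst1: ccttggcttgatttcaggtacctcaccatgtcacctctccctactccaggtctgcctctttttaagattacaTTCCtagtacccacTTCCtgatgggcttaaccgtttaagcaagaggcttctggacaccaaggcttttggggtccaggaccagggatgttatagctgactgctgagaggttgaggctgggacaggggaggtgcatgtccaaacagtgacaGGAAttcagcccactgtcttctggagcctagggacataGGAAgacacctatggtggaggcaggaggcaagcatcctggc
Car4: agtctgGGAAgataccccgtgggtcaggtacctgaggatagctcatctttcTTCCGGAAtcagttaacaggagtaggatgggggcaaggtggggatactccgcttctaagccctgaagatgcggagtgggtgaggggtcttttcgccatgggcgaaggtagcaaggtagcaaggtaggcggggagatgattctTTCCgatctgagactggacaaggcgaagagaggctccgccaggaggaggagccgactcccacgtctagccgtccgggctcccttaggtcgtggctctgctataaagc
The core was matched 4 times in the promoters of Fibin, Chst1 and Car4 and 2 times in that of Rprml, counting both strands. Ednrb and Emp2 held 3 matches each and Tmeff2 held 2. GGAA on either strand was present in 96.0% of 32851 promoters of this length, with a median of 3 matches, so its presence sets no gene of the list apart. The longer word CCGGAAG, which contains the core, was found on either strand in 8.86% of all promoters and, of the 7 promoters searched, in that of Car4. A match is a run of letters and not a measured site.

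In aerocytes, all 8 genes were lower in the libraries labelled ERG CKO, and for each gene both ERG CKO libraries lay below both WT libraries. Of all genes tested there, 49.2% had a lower estimate in ERG CKO. The share of them with both ERG CKO libraries below both WT libraries was not counted. All 8 genes passed the test (edgeR quasi-likelihood test on counts summed per library, adjusted p at most 0.05 over 7108 genes), where 6.05% of the genes tested were called lower. The 8 were also leading genes of this cluster, and all 7 genes that named it were called lower too. The share over all genes is therefore not a background of like genes. The falls of the 8 ranged from 1.80-fold for Ednrb to 7.94-fold for Rprml, and their median log2 fold change was -1.18 against 0.01 over all genes tested. The calls of Ednrb, Tbx2 and Tmeff2 were the least firm: without WT replicate 1 they were lost (adjusted p = 0.120, 0.0639 and 0.0539, edgeR) and 5 of 8 remained. In the core of 262 aerocytes 6 of 8 were called, and Ednrb (adjusted p = 0.248, edgeR) and Tmeff2 (adjusted p = 0.0743, edgeR) were not.

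**Figure D2:**
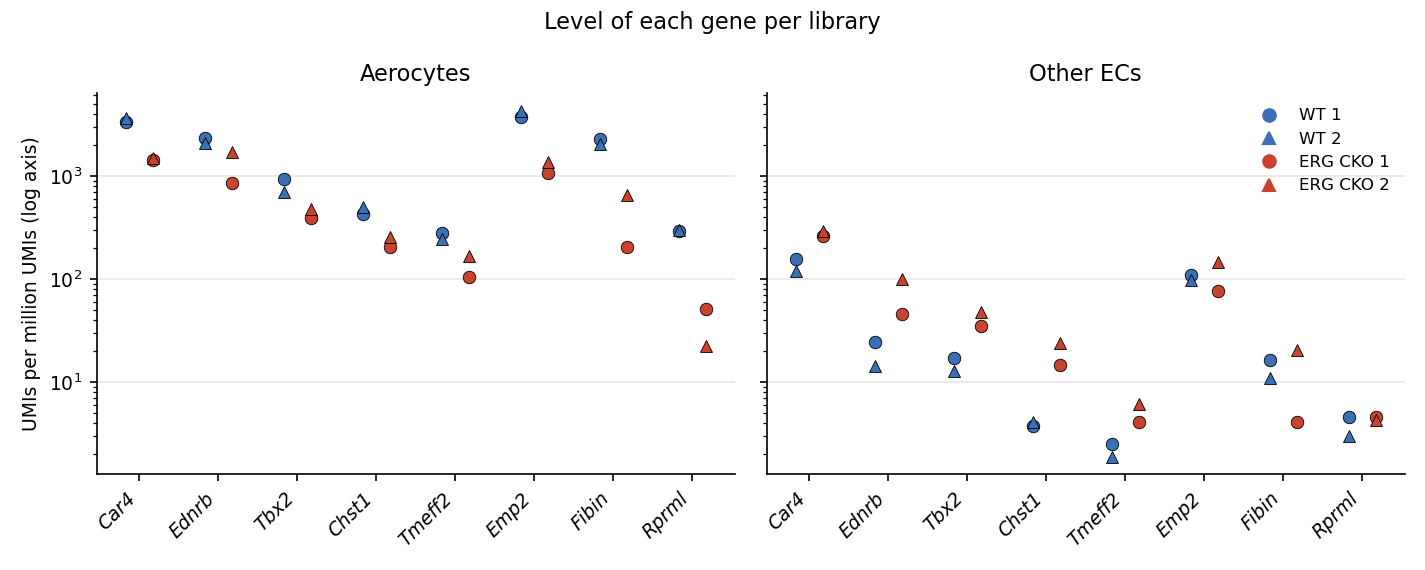
Level of each gene in CPM (log axis) in each of the 4 libraries, in aerocytes (left) and in all other ECs (right); circles are replicate 1, triangles replicate 2, blue WT and red ERG CKO. Every red point lies below the blue points of its gene in aerocytes, whereas Car4, Ednrb, Tbx2, Chst1 and Tmeff2 have their red points above the blue ones in other ECs.

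In the other ECs, the order was turned for 5 of the 8 genes. Car4, Ednrb, Tbx2, Chst1 and Tmeff2 were each higher in both ERG CKO libraries than in both WT libraries, and 3 of them (Car4, Tbx2 and Chst1) passed the test among 10472 genes, of which 1.37% were called higher. Emp2, Fibin and Rprml overlapped between the groups. How many of all genes tested were higher in both ERG CKO libraries was not counted, so the 5 of 8 have no share to be set against. The 3 calls depended on WT replicate 2: without it none of the 8 was called (adjusted p = 0.190 for Car4, 0.145 for Tbx2 and 0.112 for Chst1, edgeR), with log2 fold changes of 0.76, 1.18 and 2.24. They also depended on aligning the libraries, without which none of the 6 with enough counts was called higher and Fibin was called lower (log2 fold change -2.82, adjusted p = 0.0433, edgeR).

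**Figure D3:**
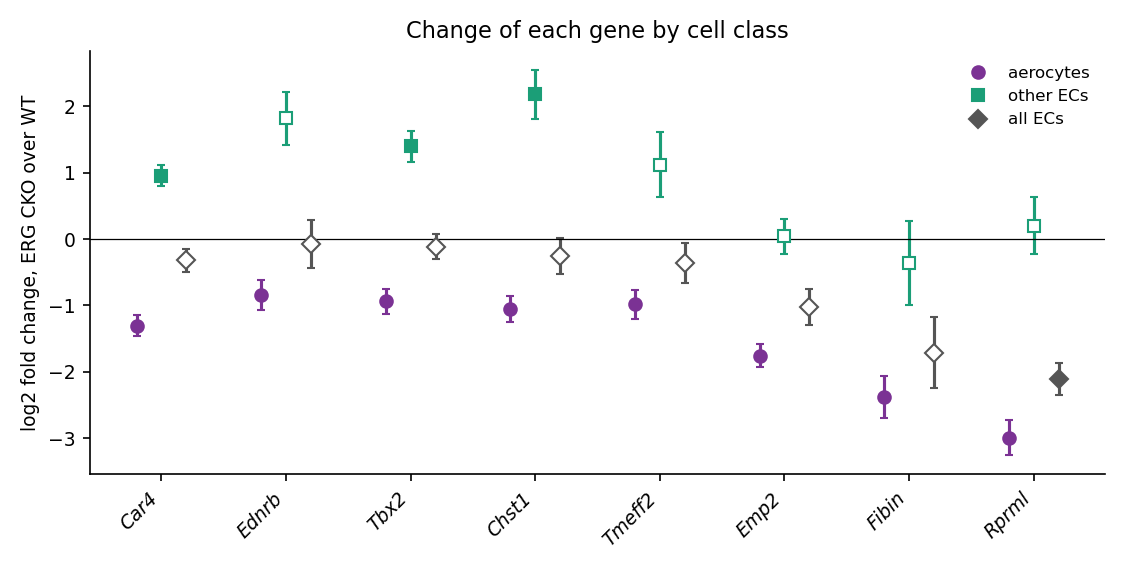
Log2 fold change of ERG CKO over WT for each gene in aerocytes (circles), other ECs (squares) and all ECs (diamonds), with bars of 1 standard error; filled symbols passed an adjusted p of 0.05 and open ones did not. Aerocyte values run from -0.84 to -2.99, and values in other ECs run from -0.36 to 2.18.

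The difference between the 2 changes was tested for each gene as an interaction of cell class and genotype. All 8 genes had a more negative change in aerocytes than in other ECs past the same threshold (edgeR), where 3.34% of 10008 genes were called in that direction. All 7 genes that named the aerocytes were called in that direction too. The log2 difference was -3.21 for Chst1, -3.14 for Rprml, -2.69 for Ednrb, -2.33 for Tbx2, -2.25 for Car4, -2.14 for Tmeff2, -2.08 for Fibin and -1.75 for Emp2. For Fibin it came to -0.22 (adjusted p = 0.946, edgeR) once 247 unnamed ECs with platelet or lymphocyte markers were left out of the other ECs, whereas the other 7 kept their call. With each cell thinned to 1000 UMIs 5 of 8 were called, and Fibin, Rprml and Tmeff2 were not.

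Markers of several other cells also moved outside aerocytes. Those of monocytes (8 genes, 218 and 195 CPM in WT, 366 and 335 CPM in ERG CKO), neutrophils, NK cells and fibroblasts were higher in other ECs of both ERG CKO libraries. Those of gCap cells, lymphatic ECs (6 genes, 611 and 401 CPM, then 119 and 57.5 CPM), mural cells and dendritic cells were lower. The part of these changes in the values of the 8 genes was not tested. Erythroid markers (5 genes) summed to 32.5 and 51.3 CPM in other ECs of the WT libraries and to 1816 and 2839 CPM in those of the ERG CKO libraries, and platelet markers (6 genes) to 62.5 and 124 CPM against 322 and 209 CPM. Over 20 haemoglobin UMIs were found in 4 ECs, 3 of ERG CKO replicate 1 and 1 of ERG CKO replicate 2, and without cells of that kind 3 of 8 genes were called higher as before. With the unnamed ECs carrying platelet or lymphocyte markers left out, 3 of the 6 genes with enough counts were called higher, Ednrb (adjusted p = 0.0106, edgeR) among them and Chst1 (adjusted p = 0.0527, edgeR) not.

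Car4 encodes carbonic anhydrase 4, an enzyme anchored on the cell surface that interconverts carbon dioxide and bicarbonate, and spans chr11:84957754-84966054. Its aerocyte level was 3304 and 3667 CPM in WT replicates 1 and 2 and 1411 and 1481 CPM in ERG CKO replicates 1 and 2. The groups did not overlap, and replicates lay close to each other (log2 fold change -1.30, SE 0.16, adjusted p = 1.0e-05, edgeR). In other ECs Car4 stood at 156 and 119 CPM in WT and at 259 and 292 CPM in ERG CKO, a rise of 0.95 on the log2 scale (SE 0.16, adjusted p = 0.0324, edgeR). Within gCap cells alone the level was 153 and 118 CPM in WT and 278 and 333 CPM in ERG CKO. Alveolar macrophages were the leading source outside the endothelium, at 285 and 271 CPM in WT and 332 and 174 CPM in ERG CKO, and aerocytes held 40.0% and 63.4% of all Car4 UMIs of the WT libraries. Car4 was seen in every WT aerocyte and in 97.7% and 93.3% of ERG CKO aerocytes, but the median number of UMIs per aerocyte was 26 in both WT libraries and 7 in both ERG CKO libraries.

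Ednrb encodes the endothelin B receptor, which binds endothelins and clears endothelin-1 from the circulation in the lung, and lies at chr14:103814615-103844508 on the minus strand. In aerocytes it was measured at 2337 and 2084 CPM in WT and at 842 and 1684 CPM in ERG CKO. ERG CKO replicate 1 was well under both WT libraries and ERG CKO replicate 2 was nearer to them. Ednrb fell by 0.84 on the log2 scale (SE 0.22, adjusted p = 0.0158, edgeR), and without ERG CKO replicate 1 it was -0.42 and no longer called (adjusted p = 0.193, edgeR). DESeq2 gave the same size and no call (adjusted p = 0.562). In other ECs the level was 24.5 and 14.3 CPM in WT and 45.6 and 99.7 CPM in ERG CKO, with a log2 fold change of 1.82 (SE 0.40) that missed the threshold (adjusted p = 0.0687, edgeR). Ednrb was also present in the 25 lymphatic ECs, with 4 UMIs in each WT library against 16 and 9 UMIs in the ERG CKO libraries. All WT aerocytes held an Ednrb UMI, against 72.7% (95% Wilson interval 64.4 to 79.6%) and 84.8% (76.7 to 90.4%) of ERG CKO aerocytes.

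Tbx2 encodes a T-box transcription factor, mostly a repressor, and lies at chr11:85832615-85841948. Its aerocyte level was 924 and 690 CPM in WT and 386 and 473 CPM in ERG CKO. Both WT libraries were higher than both ERG CKO libraries, by less than for Car4 (log2 fold change -0.94, SE 0.19, adjusted p = 0.00157, edgeR). In other ECs the values were 17.3 and 12.8 CPM in WT and 35.3 and 47.5 CPM in ERG CKO, and Tbx2 rose by 1.39 on the log2 scale (SE 0.23, adjusted p = 0.0334, edgeR). Of the 8 genes, Tbx2 was the one with the smallest share of its UMIs in ECs (51.8%). Mural cells, the pericytes and smooth muscle cells around the vessels, held it at 630 and 706 CPM in WT and at 553 and 1102 CPM in ERG CKO, and fibroblasts at 280 and 216 CPM in WT.

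Emp2 encodes epithelial membrane protein 2, a tetraspan protein of the plasma membrane that is also abundant in alveolar epithelium, and lies at chr16:10281749-10313968 on the minus strand. In aerocytes it stood at 3729 and 4257 CPM in WT and at 1057 and 1370 CPM in ERG CKO. The gap between the groups was several times the gap between replicates (log2 fold change -1.75, SE 0.17, adjusted p = 8.8e-07, edgeR). In other ECs Emp2 was at 108 and 96.9 CPM in WT and at 76.8 and 146 CPM in ERG CKO, and the groups overlapped (log2 fold change 0.04, SE 0.26, adjusted p = 0.968, edgeR). Epithelial cells held 555 and 230 CPM in WT and 865 and 735 CPM in ERG CKO, which were not tested on their own. At equal depth of 1000 UMIs per cell, Emp2 was seen in 97.7% and 100% of WT aerocytes and in 51.6% and 65.7% of ERG CKO aerocytes.

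Fibin encodes a small secreted protein first described in fin bud development, and lies at chr2:110360925-110362993 on the minus strand. Its aerocyte level was 2291 and 2050 CPM in WT and 206 and 657 CPM in ERG CKO. Both ERG CKO libraries were far under WT, and they differed from each other by a larger ratio than for any other gene of the list. Fibin fell by 2.38 on the log2 scale (SE 0.31, adjusted p = 2.3e-05, edgeR), and leaving out ERG CKO replicate 1 or 2 gave -1.76 or -3.40. The fall was in the share of cells as well as in the amount per cell. Fibin was seen in 95.3% (95% Wilson interval 84.5 to 98.7%) and 98.6% (92.4 to 99.8%) of WT aerocytes and in 25.8% (19.0 to 34.0%) and 39.0% (30.3 to 48.6%) of ERG CKO aerocytes. Among aerocytes with Fibin the mean was 18.1 and 15.2 UMIs in WT and 4.91 and 10.1 UMIs in ERG CKO, and the 5 cells with the most UMIs held 41.98% and 37.4% of the aerocyte Fibin of the ERG CKO libraries. In other ECs Fibin was at 16.5 and 10.9 CPM in WT and at 4.13 and 20.6 CPM in ERG CKO, with overlap, and the 5 highest cells held 87.2 to 93.1% of these UMIs in every library. Without the unnamed ECs with platelet or lymphocyte markers its change there was -2.34 on the log2 scale (adjusted p = 0.0837, edgeR). Fibin was also found in mural cells, at 110.5 and 238 CPM in WT and 75.4 and 167 CPM in ERG CKO, and in fibroblasts, at 96.8 and 152 CPM in WT.

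Chst1 encodes a Golgi carbohydrate sulfotransferase that adds sulfate to keratan sulfate and related sugars, and lies at chr2:92599632-92615252. In aerocytes it stood at 431 and 504 CPM in WT and at 206 and 257 CPM in ERG CKO. The libraries of the groups did not overlap (log2 fold change -1.06, SE 0.19, adjusted p = 0.000691, edgeR). Other ECs of the WT libraries held 9 and 11 UMIs of Chst1 in all (3.799 and 4.15 CPM, where lymphocytes gave at most 1.04 CPM), and those of the ERG CKO libraries held 57 and 50 UMIs (14.7 and 24.0 CPM). That was the largest rise of the 8 in other ECs (log2 fold change 2.18, SE 0.37, adjusted p = 0.0348, edgeR). Before thinning it was spread over 39 and 32 ECs in ERG CKO against 5 and 5 in WT, and gCap cells alone held 0 and 3 UMIs in the WT libraries and 22 and 19 UMIs in the ERG CKO libraries. Other ECs were deeper in ERG CKO (medians of 5331 and 4424 UMIs) than in WT (4102.5 and 3861.5 UMIs). At 1000 UMIs per cell Chst1 was seen in 11 and 5 other ECs of the ERG CKO libraries against 1 and 1 of the WT libraries.

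Tmeff2 encodes tomoregulin-2, a transmembrane protein with follistatin-like and EGF-like domains, and spans chr1:50900683-51187270. Its aerocyte level was 277 and 246 CPM in WT and 106 and 167 CPM in ERG CKO. The groups did not overlap (log2 fold change -0.98, SE 0.22, adjusted p = 0.00407, edgeR). Without ERG CKO replicate 1 the change was -0.68 and lost its call (adjusted p = 0.103, edgeR). In other ECs it had 6 and 5 UMIs in WT and 16 and 13 UMIs in ERG CKO, which lay apart without passing the test (adjusted p = 0.338, edgeR). With so few UMIs the share of other ECs in which it was seen was 0.749% and 0.796% for WT libraries, below the 1.93% and 2.51% of ERG CKO libraries.

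Rprml encodes reprimo-like, a small membrane protein related to the p53-induced cell cycle regulator reprimo, and lies at chr11:103649509-103650580. In aerocytes it was measured at 289 and 298 CPM in WT and at 51.0 and 22.2 CPM in ERG CKO. WT replicates were close to each other and far over both ERG CKO libraries, and the log2 fold change of -2.99 (SE 0.27, adjusted p = 3.0e-07, edgeR) was the largest fall of the 8. Without ERG CKO replicate 1 it was -3.75. Rprml was seen in 81.4% (95% Wilson interval 67.4 to 90.3%) and 78.9% (68.0 to 86.8%) of WT aerocytes and in 20.3% (14.3 to 28.1%) and 11.4% (6.7 to 18.9%) of ERG CKO aerocytes. In other ECs it stayed between 3.02 and 4.64 CPM in all 4 libraries (log2 fold change 0.20, SE 0.44, adjusted p = 0.893, edgeR). Of the 387 Rprml UMIs of the whole data set, 90.2% lay in ECs and 78.3% in aerocytes.

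Over all ECs together, which needs no split into subtypes, 1 of the 8 genes was called lower in ERG CKO, Rprml, where 1.34% of 10710 genes were called lower. Rprml stood at 39.0 and 51.4 CPM in WT ECs and at 12.4 and 8.47 CPM in ERG CKO ECs (log2 fold change -2.10, SE 0.24, adjusted p = 0.00970, edgeR). Emp2 (-1.03, adjusted p = 0.100, edgeR) and Fibin (-1.71, adjusted p = 0.153, edgeR) were lower in size and missed the threshold. The other 5 genes, those higher outside aerocytes, had log2 fold changes of -0.08 to -0.36. With the replicate number as a block 3 of 8 were called lower, with Emp2 and Fibin added, where 5.72% of all genes tested were called lower. The labels do not say that the numbers pair the libraries. No call over all ECs held with cells thinned to 1000 UMIs.

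In non-endothelial cells 7 of the 8 genes had enough counts for the test and none was called (edgeR), where 0% of 13682 genes were called in either direction and 653 had an unadjusted p under 0.05. Fibin and Tbx2 were the 2 of the 8 with an unadjusted p under 0.05, with log2 fold changes of -1.15 and -1.10. DESeq2 called 66 genes there and none of the 8. The main other sources of Tbx2 and Fibin varied in number, with 143 and 75 fibroblasts in the WT libraries against 185 and 26 in the ERG CKO libraries, and 72 and 50 mural cells against 46 and 14, so fewer such cells and less RNA per cell cannot be told apart in these sums.

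Depth per cell differed between the groups in aerocytes, with medians of 6992 and 7455 UMIs in WT and 5730 and 5710 UMIs in ERG CKO, and each cell was therefore also thinned to 1000 UMIs. At that depth all 8 genes were seen in a smaller share of aerocytes in both ERG CKO libraries than in both WT libraries. In the test on the thinned counts 6 of the 8 were called lower in aerocytes (edgeR), where 7.25% of 1877 genes were called lower. In percentage points the share dropped furthest for Fibin, seen in 83.7% and 77.5% of WT aerocytes against 11.7% and 27.6% of ERG CKO aerocytes. Rprml was seen in 16.3% and 25.4% against 4.69% and 2.86%. Car4 was seen in 93.0% and 93.0% against 69.5% and 69.5%. In other ECs at this depth Car4 was seen in 10.7% and 10.5% of WT cells and in 19.2% and 21.7% of ERG CKO cells, and Ednrb in 1.32% and 0.806% against 3.92% and 5.37%. Before thinning, Car4 was seen in 30.9% and 29.1% of other ECs in WT against 44.9% and 49.6% in ERG CKO, where lymphocytes gave at most 1.43%.

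**Figure D4:**
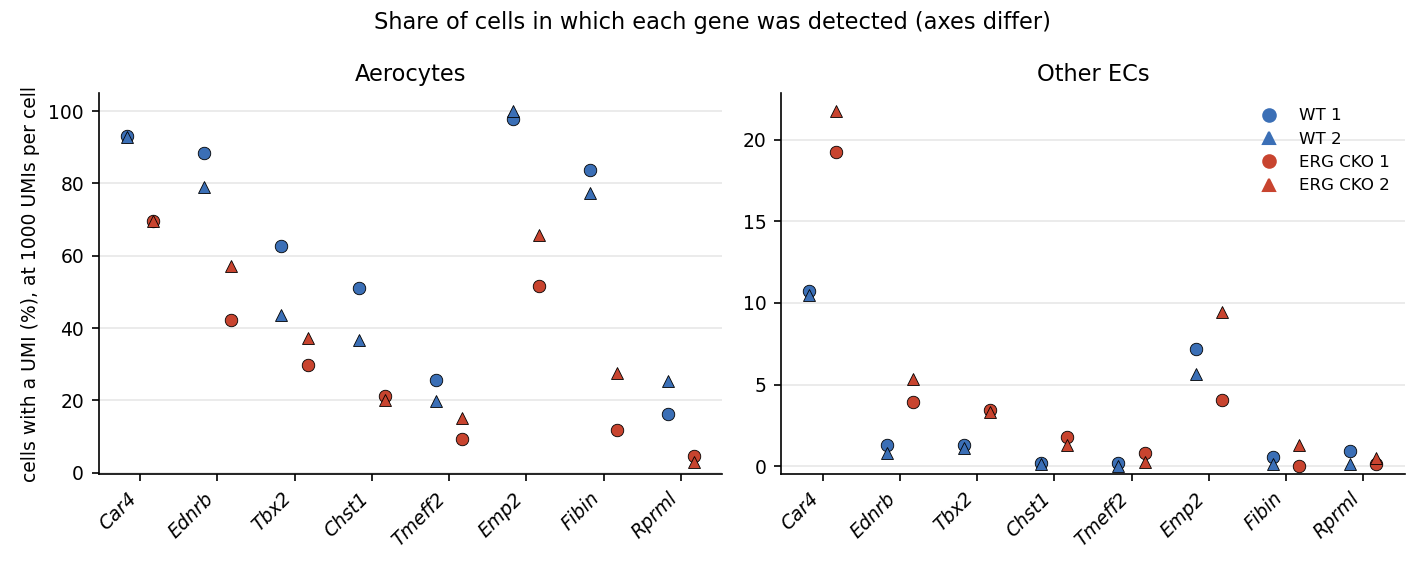
Percentage of cells with at least 1 UMI of each gene after thinning every cell to 1000 UMIs, per library, in aerocytes (left) and other ECs (right, with a smaller axis). In aerocytes the red ERG CKO points lie under the blue WT points for each gene, and in other ECs Car4 goes from 10.7% and 10.5% to 19.2% and 21.7%.

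The 8 genes were seen together in WT aerocytes. Before thinning, a WT aerocyte held a mean of 7.56 and 7.35 of the 8 genes in replicates 1 and 2, and an ERG CKO aerocyte held 4.77 and 5.25. At 1000 UMIs per cell WT means of 5.19 and 4.75 stood against ERG CKO means of 2.40 and 2.95, without overlap, and at least 4 genes were seen in 95.3% and 84.5% of WT aerocytes against 21.9% and 31.4% of ERG CKO aerocytes. Across other ECs the order was opposite, with a mean of 0.224 and 0.185 genes in WT and 0.334 and 0.432 in ERG CKO.

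This crossing of the groups showed over all ECs at 1000 UMIs per cell. At least 2 of the 8 genes were seen in 8.71% and 11.4% of WT ECs, against 16.1% and 23.8% in ERG CKO. At least 3 were seen in 8.01% and 10.3% of WT ECs, against 9.18% and 14.5% in ERG CKO, which overlapped (difference 2.70 percentage points, exact permutation p = 0.667). At least 4 were seen in 7.67% and 8.83% of WT ECs, against 4.05% and 6.85% in ERG CKO, so at this depth the sign of the difference turned with the number of genes asked for. The exact permutation p was 0.333 for at least 2 and for at least 4 genes. With cells thinned to 2000 UMIs, at least 3 genes were seen in 8.45% and 10.98% of WT ECs. The ERG CKO shares at that depth were 15.03% and 22.2%, without overlap (difference 8.897 percentage points). At least 4 were seen there in 8.09% and 10.5% of WT ECs, against 9.27% and 15.9% in ERG CKO, which overlapped. Without thinning, at least 3 genes were seen in 10.1% and 12.02% of WT ECs, against 22.3% and 31.2% in ERG CKO. Before thinning, of the WT ECs with at least 4 genes, 87.8% and 97.3% lay in the aerocyte cluster, against 79.2% and 77.4% in ERG CKO.

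**Figure D5:**
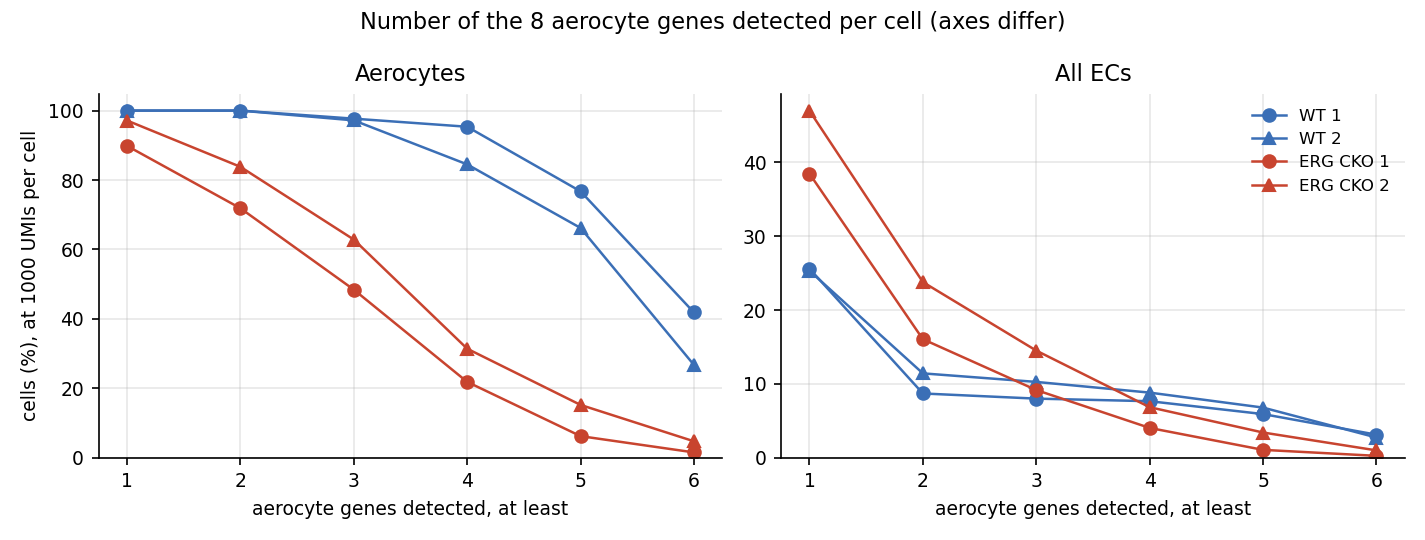
Percentage of cells in which at least 1 to 6 of the 8 genes were seen, at 1000 UMIs per cell, for each library in aerocytes (left) and in all ECs (right, with a smaller axis). The red ERG CKO lines run under the blue WT lines in aerocytes, and in all ECs they start above WT and end below it.

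Pairs of genes were compared with the product of their separate shares, as a description, since cells of a library share its depth. In WT aerocytes the median over 28 pairs of the ratio of observed to product was 1 in both replicates before thinning, and 0.996 and 1 at 1000 UMIs per cell. Before thinning, Car4, Ednrb and Emp2 were seen in every WT aerocyte, so a pair with any of them could only give 1. The ratios of WT and ERG CKO before thinning therefore cannot be compared. In ERG CKO aerocytes all 28 pairs were seen together more often than the product before thinning, with a median ratio of 1.12 and 1.06 and with Fibin and Tmeff2 at 1.41 and 1.55. At 1000 UMIs per cell this held for 20 of 28 pairs in each ERG CKO library and for 12 and 11 of 28 in the WT libraries, with median ratios of 1.17 and 1.07 in ERG CKO. ERG CKO aerocytes in which Fibin was seen at 1000 UMIs held a mean of 3.13 and 3.21 of the other 7 genes, and those without it 2.17 and 2.47. In other ECs the median ratio before thinning was 3.86 and 1.99 for WT libraries and 2.74 and 2.67 for ERG CKO libraries, so the groups overlapped. Car4 with Emp2 stood there at 1.26 and 1.31 for WT libraries and at 1.40 and 1.32 for ERG CKO libraries.

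The genes outside the list most like each member were taken by the correlation of log2(CPM + 10) over 76 sums (19 cell classes in 4 libraries), among 13774 genes, as a description. The 8 genes themselves were left out of this ranking, and some of them correlated more closely with each other. Sums of a class share its identity and those of a library its depth. Car4 was nearest to Prickle2 (r = 0.89), Plxna1 (r = 0.85) and Prx (r = 0.84). Ednrb was nearest to Ccdc68 (r = 0.84), Igfbp7 (r = 0.84) and Adamtsl5 (r = 0.84), and Emp2 to Igfbp7 (r = 0.93), Map1lc3a (r = 0.88) and Pvrl3 (r = 0.88). Prx and Igfbp7 were among the genes that named the aerocytes. Fibin and Tbx2, which share mural cells and fibroblasts as further sources, both had C1qtnf2 (r = 0.94 and 0.92) and Egflam (r = 0.85 and 0.94) among their 3 nearest outside the list, with Meox1 (r = 0.85) for Fibin and Mir143hg (r = 0.90) for Tbx2. Chst1, Tmeff2 and Rprml all had Dpysl5 among their 3 nearest outside the list (r = 0.89, 0.88 and 0.88). Tbx3os1 (r = 0.86) and Rgs6 (r = 0.85) followed for Chst1, Xpnpep2 (r = 0.86) and Ccdc184 (r = 0.85) for Tmeff2, and Lmntd1 (r = 0.89) and Xpnpep2 (r = 0.89) for Rprml. Among the 8 genes themselves the closest pairs were Ednrb with Chst1 and Fibin with Tbx2, both at r = 0.89.

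Some relatives of the 8 genes rose in aerocytes and others fell. Of 12 carbonic anhydrases 2 were tested in aerocytes: Car4 fell, and Car2, a cytosolic form, rose from 73.9 and 36.5 CPM in WT to 115 and 111 CPM in ERG CKO (log2 fold change 1.08, SE 0.29, adjusted p = 0.0178, edgeR). Of 6 genes around Emp2, all tested, Emp2, Pmp22 and Cav1 fell and Emp3 rose. Emp3, a close relative of Emp2, stood at 9.24 and 1.92 CPM in WT aerocytes and at 292 and 257 CPM in ERG CKO aerocytes, and its log2 fold change of 5.75 (SE 0.38, adjusted p = 9.0e-09, edgeR) was opposite in sign to that of Emp2. The WT values rest on 3 and 1 UMIs, so the size of this change is loosely set. In other ECs Emp3 rose by 0.96 on the log2 scale (adjusted p = 0.0169, edgeR). Cav1, the main coat protein of caveolae, fell by 1.13 on the log2 scale and Pmp22 fell by 0.59.

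Over all genes tested in aerocytes, 5.12% were called higher and 6.05% lower. Of 8 carbohydrate sulfotransferases in the matrix 6 were tested in aerocytes, and 3 fell and 1 rose. Chst2 fell from 277 and 260 CPM in WT to 71.3 and 74.6 CPM in ERG CKO (log2 fold change -1.91, adjusted p = 2.2e-06, edgeR), Chst15 fell by 1.59 on the log2 scale, and Chst12 rose by 1.45. Of 7 genes of the endothelin axis 2 were tested in aerocytes and Ednrb alone was called. Of 6 T-box factors 2 were tested and Tbx2 alone was called. Of 4 tomoregulin and reprimo genes 3 were tested, and Tmeff2 and Rprml fell. The 7 genes that named the aerocytes all fell within them, Nrp1 just inside the threshold (adjusted p = 0.0492, edgeR). In other ECs 1 of these 7, Apln, rose, from 8.86 and 2.26 CPM in WT to 66.0 and 68.6 CPM in ERG CKO (log2 fold change 3.58, adjusted p = 0.0100, edgeR). Of the 8 gCap naming genes 4 fell and none rose in other ECs, where 0.688% of all genes tested were called lower. Since both naming lists chose the cells compared, these counts describe the clusters and are not independent of them.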

How the data were processed

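Single-cell RNA was measured in 4 lung libraries, 2 labelled WT and 2 labelled ERG CKO. Per the submitters' processing notes, reads were handled with Cell Ranger 3.1.0 on mm10, and the authors deposited raw UMI counts of 20076 gene symbols in 9363 cells. The paper describes a smaller filtered set of cells, and no cell was removed here before naming. The 8 genes, and all lists used, were chosen with earlier results of these data known.

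Cells were aligned across libraries and clustered with Seurat 5.3.0 (2000 variable genes, 30 dimensions, resolution 0.8; ECs again with 20 dimensions, resolution 0.6). Left out of the EC clustering were the 348 genes called in all ECs, the 8 genes of the list, Xist, Y-linked genes and Erg. Clusters were named from at least 3 markers; names rebuilt in this way may differ from those of the study. Doublets were called with Scrublet in scanpy 1.11.5 (60 cells, 0.641%), kept, and left out in an alternative.

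Counts were summed per library and class and compared by quasi-likelihood in edgeR 4.0.16 (TMM, filterByExpr, Benjamini-Hochberg adjustment over all genes tested, limit 0.05). The class by genotype interaction had the library as a block. Shares of cells were compared with exact two-sided permutation tests over libraries. For detection each cell was thinned to 1000 UMIs, and cells under that depth were left out (3 and 8 ECs in WT replicates 1 and 2, 8 and 8 in ERG CKO). A second depth of 2000 UMIs left out 21 and 25 ECs in WT and 37 and 40 in ERG CKO. Wilson intervals (95%) cover counting error only. Replicates of a group differed beyond sampling noise (chi-square per degree of freedom 1.89 to 18.5). On simulated data with 200 changed genes, the aerocyte test recovered 40.7% of log2 changes of 1 and 92% of those of 2 among 7048 genes; the interaction test recovered 7% and 62% among 9985 genes. Alternatives were DESeq2 1.42.0, no filter, thinning, doublets or mitochondrial-rich cells (over 10%) left out, other resolutions, no alignment, the 8 genes or called genes kept in the clustering, the replicate number as a block, and each library left out. Further alternatives were chosen after seeing the data: core aerocytes, unnamed ECs left out, cells with over 20 haemoglobin UMIs left out, and unnamed low-depth cells counted with ECs.

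The named genes were the 8 of the list, the 3 genes outside the list most correlated with each, and family members that were called. Promoters were taken from a set of 32851 RefSeq promoter sequences that held 7 of the 8 genes. Tbx2 was not in that set, although RefSeq gave its position.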

Additional observations from a re-analysis of the deposited data

Results flagged for a closer look

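For each of the 8 genes the change between ERG CKO and WT differed between aerocytes and other ECs by the interaction test (edgeR, adjusted p at most 0.05), which is what marked it for a closer look. The log2 change in aerocytes less that in other ECs was -2.25 for Car4, -3.21 for Chst1, -2.69 for Ednrb, -1.75 for Emp2, -2.08 for Fibin, -3.14 for Rprml, -2.33 for Tbx2 and -2.14 for Tmeff2. Each gene was lower in both ERG CKO libraries in aerocytes. In other ECs Car4, Chst1, Ednrb, Tbx2 and Tmeff2 were higher in both ERG CKO libraries than in both WT libraries, and Emp2, Fibin and Rprml overlapped. The share of all genes that lay apart in these ways was not counted. Markers shared by all ECs were lower in ERG CKO aerocytes as well (12392 and 12237 CPM against 22265 and 21823 CPM in WT), and their part in the differences was not tested.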

How the results depend on the processing

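In aerocytes, 125 of 136 values of the 8 genes under the alternatives kept their direction and side of the threshold and 11 lost the call, none with a change of direction. With a library left out the aerocyte log2 change ran from -1.40 to -0.42 for Ednrb, from -1.13 to -0.725 for Tbx2 and from -1.31 to -0.68 for Tmeff2. The count of genes called in aerocytes was 8 without alignment. In that setting WT and ERG CKO aerocytes hardly shared a cluster, so its count is no check on the calls. In other ECs the count was 0 to 5 with a library left out (0 without WT replicate 2, and 5, 4 higher and Fibin lower, when ERG CKO replicate 2 was left out) and 1, Fibin lower, without alignment. In all ECs it was 1 to 6 with a library left out (6 without ERG CKO replicate 2), 3 with no filter, 3 with the replicate number as a block and 0 after thinning. In non-endothelial cells it was 0 to 1 (1 without ERG CKO replicate 1). The interaction gave 7 without alignment, 7 without the unnamed ECs with platelet or lymphocyte markers and 5 after thinning. With a library left out none of its 8 changes turned direction. The difference in the share of ECs with at least 3 genes was 0.0324 to 5.37 points with a library left out and -2.79 for at least 4 genes. For at least 3 genes it was 8.897 points with cells thinned to 2000 UMIs and 15.7 points without thinning. The difference in aerocyte share was 8.28 to 12.03 points with a library left out, and 32.7 without alignment against 4.43 in the core.

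After thinning, the all-EC log2 changes turned to 0.079 for Car4, 0.50 for Chst1, 0.35 for Ednrb, 0.36 for Tbx2 and 0.39 for Tmeff2. With a library left out they ran from -0.62 to 0.11 for Chst1, -0.89 to 0.44 for Ednrb, -0.43 to 0.15 for Tbx2 and -0.90 to 0.090 for Tmeff2. In other ECs Emp2 turned to -0.45 without alignment and to -0.22 without the unnamed ECs, and with a library left out the ranges were -0.45 to 0.42 for Emp2, -1.74 to 0.52 for Fibin and -0.094 to 0.53 for Rprml. In non-endothelial cells they were -0.60 to 0.083 for Car4 and -0.079 to 0.70 for Tmeff2. The cause was not tested.

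Over all genes, calls in aerocytes numbered 794, against 391 by DESeq2, 217 after thinning, 1300 without alignment and 427 without WT replicate 2. In other ECs they numbered 215, against 957 with no filter, 563 with the block, 352 with core aerocytes, 338 with called genes kept in the clustering, 139 after thinning, 121 without the unnamed ECs, 74 without alignment and 57 to 777 with a library left out. In all ECs they numbered 348, against 1190, 1213 and 198 with no filter, the block and thinning, and 64 to 1061 with a library left out. In non-endothelial cells 0 genes were called, against 66 by DESeq2, 59 with no filter and 1 to 166 with a library left out. The interaction called 625, against 194 by DESeq2, 95 after thinning and 1032 without alignment. The deviations of same-numbered libraries correlated at 0.145 to 0.294, with 2 pairs, so the pairing is not established, and the block also called Ednrb in other ECs (adjusted p = 0.0272, edgeR). With 2 libraries a group and 43 aerocytes in WT replicate 1, small changes were beyond this depth.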
